A study of Homo sapiens with 4 samples.

Results

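The comparison is that of MDA-MB-231 with MCF10A cells under control siRNA. It rests on 2 of the 4 arrays of the study, the control array of each line, and takes all 37810 gene names of the deposited value table. MCF10A cells are immortalized breast epithelial cells that form no tumors, and MDA-MB-231 cells come from a metastatic breast tumor. The study depleted the forkhead transcription factor FOXF2 with small interfering RNA (siRNA) in both lines, with control siRNA beside it. Each culture received 20 nM of its siRNA with a lipid reagent, and total RNA was taken at 48 h and read as biotinylated cRNA on an Illumina BeadChip. The groups were MCF10A with control siRNA, MDA-MB-231 with control siRNA, MCF10A with FOXF2 siRNA and MDA-MB-231 with FOXF2 siRNA, each with 1 array.

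The pair of arrays with FOXF2 siRNA served only to see whether a difference between the lines came back on other arrays, and they are not replicates, since FOXF2 was depleted on them. FOXF2 itself read 241 under control and 143 under FOXF2 siRNA in MCF10A, and 259 and 123 in MDA-MB-231, so it was dimmer on both arrays of depleted cells. The lines differed little in FOXF2 under control siRNA (log2 difference 0.16). With 1 array per group no difference between the lines has a replicate check, no test was made, and precision is limited by how few arrays there are. Each line is 1 cell line and stands for itself. The labels say that each was grown in a medium suited to it and name none, so line and medium cannot be told apart.

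Mammary ducts have an inner luminal and an outer basal layer, which differ in their keratins. Basal cells carry KRT5, KRT14 and KRT17, hold to the basement membrane through hemidesmosomes and to each other through cadherins and desmosomes. In an epithelial-mesenchymal transition such junctions and keratins are given up and vimentin filaments, other cadherins and proteases appear, and repressors of the ZEB and SNAI families, which bind the E-box CAGGTG, can drive it. MDA-MB-231 is known as a line of the mesenchymal-like kind without estrogen and progesterone receptors, and as a carrier of mutated BRAF, a kinase that feeds the ERK cascade.

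Values are deposited intensities, on a linear scale and with the background left in. The most frequent value, taken as the background, lay between 102.1 and 102.4 on the 4 arrays, and a gene was called above background past the upper 1% of it, at intensities of 121.0 to 121.6. Between 13944 and 14148 names passed on an array. Differences are log2 of MDA-MB-231 minus MCF10A after background correction. Where only 1 line was above background the value is a bound, written "at least N-fold": the other line was set to its own value or, if that was lower, to the dimmest value that passed the limit on its array. Such a fold is of the signal after background correction and is a lower bound only as far as that correction holds. It is mostly larger than the ratio of the printed intensities, which still hold the background (for KRT6A, at least 664-fold against a ratio of 261). A bound under 2-fold is not called, and the size of that difference is not known. A reading at background does not show that the RNA was absent. RPL10, a ribosomal protein gene, and CTNND1, a catenin, read at background on all 4 arrays. In what follows, intensities of a gene are given for control siRNA first and FOXF2 siRNA next within each line. The chip reads bulk RNA, in which fewer cells of a type and less RNA per cell cannot be told apart.

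Of 17198 genes above background on at least 1 control array, 1330 (7.73%) were at least 2-fold higher in MDA-MB-231 and 1314 (7.64%) at least 2-fold lower, 15.4% in all. Of these, 890 higher and 851 lower genes were above background in both lines, and 440 and 463 were bounds. At 4-fold, 345 genes were higher (2.01%) and 369 lower (2.15%). The list counts given below are to be set beside the 2-fold shares over all genes, 7.73% higher and 7.64% lower. These shares also count names that match no known gene symbol, while the lists hold almost only names that do. They are thus a rough yardstick, and the shares over matched names alone are not given here. The median log2 difference of all 17198 genes was 0.02; as the deposited control arrays had the same median intensity (111.6) and shared many values exactly, this says nothing of a shift between the lines. The FOXF2 siRNA pair shared no array with the control pair. In it, 823 of the 1330 higher genes (61.9%) and 863 of the 1314 lower genes (65.7%) again passed 2-fold in the same direction, which is 4.79% and 5.02% of the genes compared. The sign was the same for 92.6% and 94.9%. Of the 4-fold differences, 96.2% and 97.3% passed 2-fold again. In the opposite direction, 1 higher and 1 lower gene passed.

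**Figure D1:**
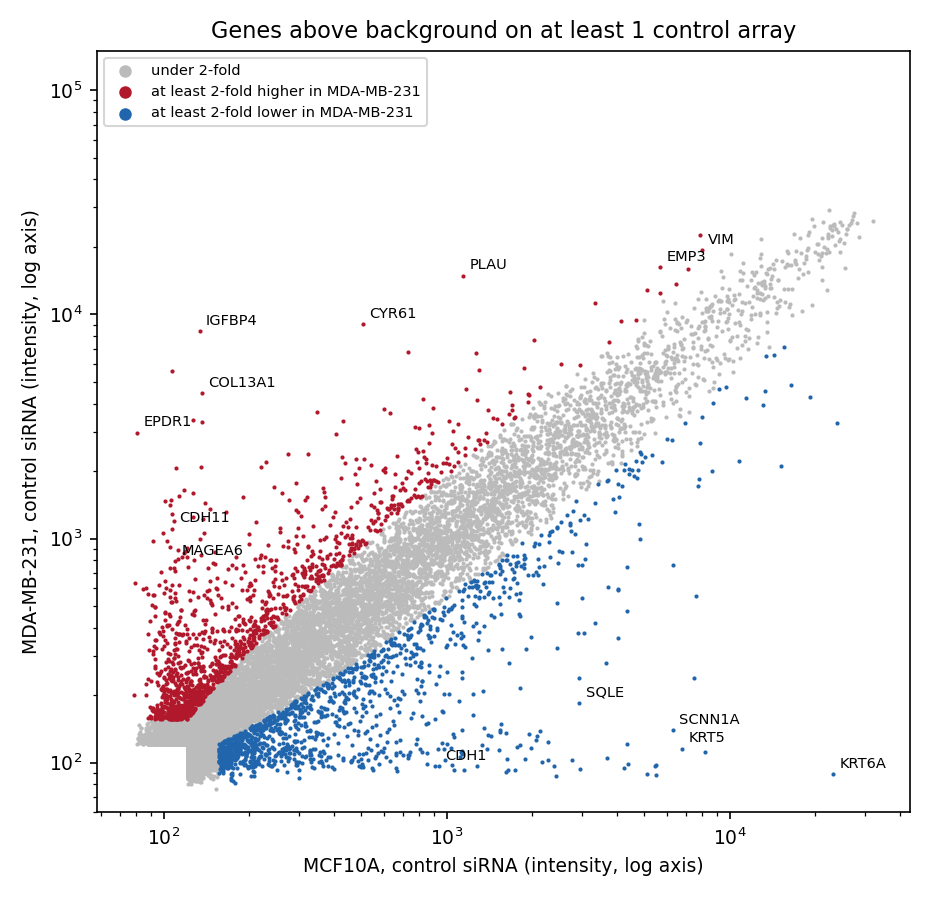
Intensity of each gene above background on at least 1 control array, MCF10A across and MDA-MB-231 up, both on log axes; each point is 1 gene on 1 array per line, and XIST and Y-linked genes are left out. Coloured points lie at least 2-fold apart after background correction (1330 higher and 1314 lower genes in all), and KRT6A and IGFBP4 lie far out on opposite sides.

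Over the 9968 genes above background on all 4 arrays, the line differences of both pairs had a Pearson correlation of 0.816, a description across genes of 1 experiment. The robust SD of the control difference minus the FOXF2 siRNA difference was 0.47 on the log2 scale. It holds the error of all 4 arrays and any effect of FOXF2 depletion that differed between the lines. It was 0.60 and 0.61 at mean log2 values of 5 to 6 and 6 to 7, and 0.38 at 10 to 16, so dim genes were the less certain. Within a line, 2.84% (MCF10A) and 2.58% (MDA-MB-231) of genes were 2-fold apart between the siRNAs. The pairs disagreed by more than 1 on the log2 scale for 5.33% of these genes, from 12.2% at mean log2 values of 6 to 7 down to 0.866% at 10 to 16.

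**Figure D2:**
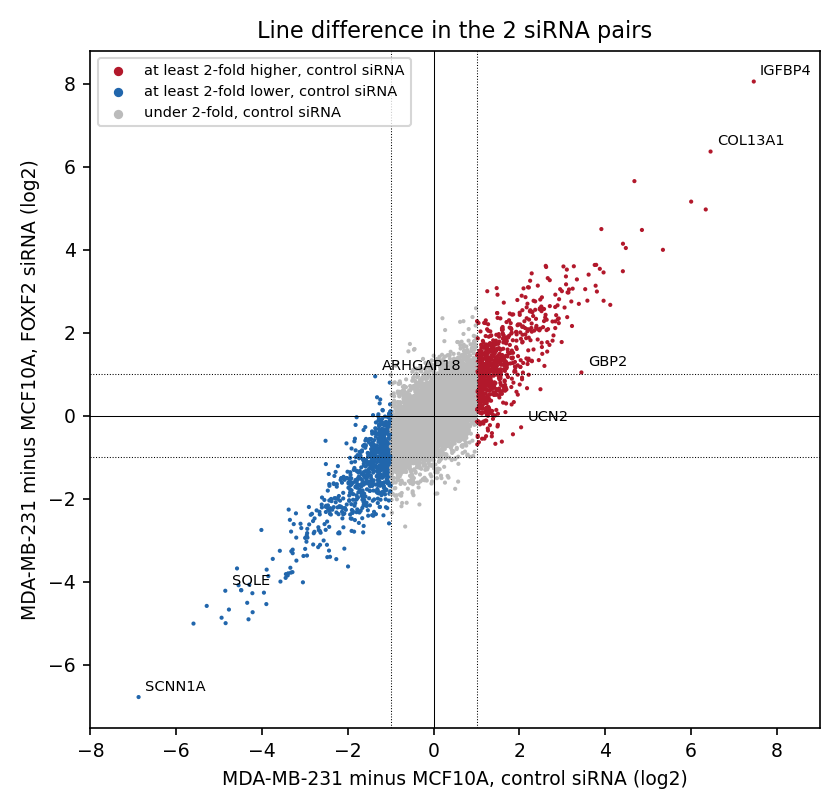
Log2 difference of MDA-MB-231 minus MCF10A under control siRNA (across) and under FOXF2 siRNA (up) for the 9968 genes above background on all 4 arrays; dotted lines mark 2-fold. Large differences lie near the diagonal (Pearson correlation 0.816), while UCN2 and ARHGAP18 had opposite signs in the pairs.

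The labelled cell types were set against markers. Of 10 markers of basal mammary epithelium, all 10 were above background, 8 were at least 2-fold lower in MDA-MB-231 and 0 higher, beside 7.64% and 7.73% of all genes; their summed intensity was 27796 and 29347 in MCF10A and 2692 and 2746 in MDA-MB-231. The 10 markers of mesenchymal-like lines had 9 above background, 5 higher and 1 lower. Of the higher ones, CDH11, AXL and GNG11 repeated, and VIM and EMP3 did not pass 2-fold again. The lower one was TCF4 (at least 4.39-fold), and CAV1 differed by -0.15. VIM, the intermediate filament of mesenchymal cells, read 7981 and 7247 in MCF10A and 19421 and 13731 in MDA-MB-231. AXL, a receptor tyrosine kinase, read 822 and 769.5 in MCF10A and 4213 and 3011 in MDA-MB-231 (log2 difference 2.49). Both were bright in both lines, and brighter in MDA-MB-231, but VIM differed by 1.29 in the control pair and 0.93 in the other. ESR1 and PGR, the estrogen and progesterone receptors, were at background on all 4 arrays. MCF10A thus carried the basal markers in full. Most mesenchymal-like markers were above background in MDA-MB-231, and VIM, AXL, CAV1 and EMP3 among others were so in MCF10A too. ZEB1 was near background (111 and 98.9 in MCF10A and 136 and 129 in MDA-MB-231).

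Markers of cells that neither line should hold were mostly dark, but so were 20612 of all 37810 names on both control arrays. Of 9 fibroblast markers, 3 were above background on a control array, and COL1A1, COL1A2, COL3A1, LUM and POSTN were not; DCN and FAP were seen in MCF10A only (333 and 852 and 300.3 and 314). The summed fibroblast markers were 1409 and 1958 in MCF10A and 907 and 987 in MDA-MB-231. Of 11 blood cell markers 3 were above background, PTPRC, CD3E and MS4A1 were not, and the sums were 1846 and 1976 against 1977 and 2154. CD14, a lipopolysaccharide co-receptor, read 535 and 692 in MCF10A and 128 and 115 in MDA-MB-231, and CD68, a lysosomal protein, 338 and 316 in MCF10A and 853 and 1097 in MDA-MB-231. Endothelial markers (3 of 7) and adipocyte markers (2 of 5) showed sums of 846 and 707 in the MCF10A control and 849 and 856 in the MDA-MB-231 control. Both adipocyte markers read in both lines: LEP at 261 and 239 in MCF10A and 362 and 278 in MDA-MB-231, and FABP4 dimly. FABP4 was higher in MDA-MB-231 (1.44, and 1.11 in the FOXF2 siRNA pair). The part of such cells in the differences was not tested.

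Keratins, the filament proteins of epithelia, held the 3 largest bounds among the named genes. Of the 11 basal keratins, all above background, 9 were at least 2-fold lower in MDA-MB-231, 0 were higher, and all 9 repeated; their median log2 difference was -3.78. KRT6A, a keratin of wounded and cultured keratinocytes, read 23282 and 24698 in MCF10A and 89.1 and 87.5 in MDA-MB-231, at least 664-fold lower in MDA-MB-231. KRT5, the type II keratin of basal cells, read 6789.9 and 7202 in MCF10A and 115.7 and 109 in MDA-MB-231 (at least 192-fold). Its partner KRT14 read 2404 and 2075 in MCF10A and 96.7 and 93.1 in MDA-MB-231 (at least 66.3-fold). Each of these was bright in MCF10A and at background on both MDA-MB-231 arrays. KRT17 and KRT16, which are induced in stressed epithelium, were at least 233-fold and 13.7-fold lower. KRT6C (5509.6 and 5648 against 97.6 and 92.6) is a near-identical copy of KRT6A, and whether its signal is its own was not tested. KRT81, a hair keratin that the list also holds, was an exception among the 9 lower genes in that it stayed bright in MDA-MB-231. It read 23938 and 26072 in MCF10A and 3281 and 4313 in MDA-MB-231 (log2 difference -2.90). The members that were not lower were KRT23 (0.09) and KRT86 (0.44, and 1.11 in the FOXF2 siRNA pair).

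The simple keratins, those of luminal and other single-layered epithelia, split. KRT19 read 79.1 and 117 in MCF10A and 634 and 981 in MDA-MB-231, at least 15.6-fold higher in MDA-MB-231, and KRT8 read 334 and 417 in MCF10A and 772 and 961 in MDA-MB-231 (log2 difference 1.47). KRT80 read 234 and 229 in MCF10A and 932 and 1115 in MDA-MB-231 (2.52). KRT7 was lower, at 7832 and 7191 in MCF10A and 2657 and 2668 in MDA-MB-231 (-1.59), and KRT18, the partner of KRT8, differed by 0.29 and did not pass 2-fold. In the MDA-MB-231 control 8 basal keratins were at background, while 4 of the 5 simple keratins above background were brighter than in MCF10A.

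Cell-cell junction genes were next. Of 17 adherens junction and epithelial adhesion genes above background, 10 were lower and 2 higher (median -1.18), and 9 of the lower genes repeated. CDH1 (E-cadherin), the main epithelial cadherin, read 937 and 1105 in MCF10A and 96.2 and 111 in MDA-MB-231, at least 24.3-fold lower in MDA-MB-231. CDH3 (P-cadherin), that of basal cells, read 1634 and 1761 in MCF10A and 104 and 127 in MDA-MB-231 (at least 44.3-fold). MUC1, an apical mucin, read 1129.9 and 2952 in MCF10A and 109 and 118 in MDA-MB-231 (at least 29.9-fold). CD24, a surface glycoprotein whose loss is used to sort stem-like breast cancer cells, read 1235 and 2077 in MCF10A and 163 and 172 in MDA-MB-231 (log2 difference -3.90). TACSTD1 (EPCAM) kept a signal in MDA-MB-231, with 807 and 688 in MCF10A and 189 and 189.9 in MDA-MB-231 (-2.81). ST14, the membrane protease matriptase, was at least 11.8-fold lower. The catenins CTNNA1 and CTNNB1, of the link from cadherins to actin, differed far less. CTNNA1 read 4892 and 4479 in MCF10A and 4573 and 3929 in MDA-MB-231 (-0.10), and CTNNB1 differed by 0.49. The splicing factors RBM35A and RBM35B (ESRP1 and ESRP2) were at background on both control arrays.

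Of 13 desmosome genes above background, 8 were lower and 1 higher (median -1.30; 6 repeated). DSG3, a desmosomal cadherin, read 648 and 1022 in MCF10A and 153 and 107 in MDA-MB-231 (log2 difference -3.07), JUP (plakoglobin) 964 and 1089 in MCF10A and 171 and 295 in MDA-MB-231 (-3.38) and DSP (desmoplakin), the plaque protein that binds keratin, 679.9 and 643 in MCF10A and 168 and 193 in MDA-MB-231 (-2.86). EVPL, envoplakin, was the gene on the other side (1.40, and 0.71 in the FOXF2 siRNA pair). PKP2, a plaque protein, was uncertain, with -2.52 in the control pair and -0.60 in the other. Tight junction and polarity genes held more members that did not differ, with 6 lower, 2 higher and 11 not called of 19 (median -0.13). CLDN7, a claudin, read 403 and 552 in MCF10A and 151 and 196 in MDA-MB-231 (-2.28) and F11R, a junctional adhesion molecule, 544 and 552 in MCF10A and 208 and 183 in MDA-MB-231 (-1.91). CLDN15, another claudin, went the other way (2.07). CRB3, an apical polarity protein, was at least 3.36-fold lower.

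Hemidesmosome and basement membrane genes were lower where they differed at all: 6 of 18 were lower, 0 higher and 12 not called (median -0.23). COL17A1, the transmembrane collagen of hemidesmosomes, read 2146 and 1975 in MCF10A and 138 and 121 in MDA-MB-231 (log2 difference -5.31). LAMA3, the alpha chain of laminin-332, the ligand of hemidesmosomes, was at least 29.8-fold lower. The beta chain LAMB3 did not pass 2-fold, at 1526 and 1369.6 in MCF10A and 961 and 988 in MDA-MB-231 (-0.72). The integrin pair that forms the hemidesmosome, ITGA6 and ITGB4, differed by -1.41 and -0.88 (ITGB4 by -1.61 in the FOXF2 siRNA pair). In MDA-MB-231 the collagen and LAMA3 were thus at or near background, while LAMB3 and both integrins kept a clear signal.

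**Figure D3:**
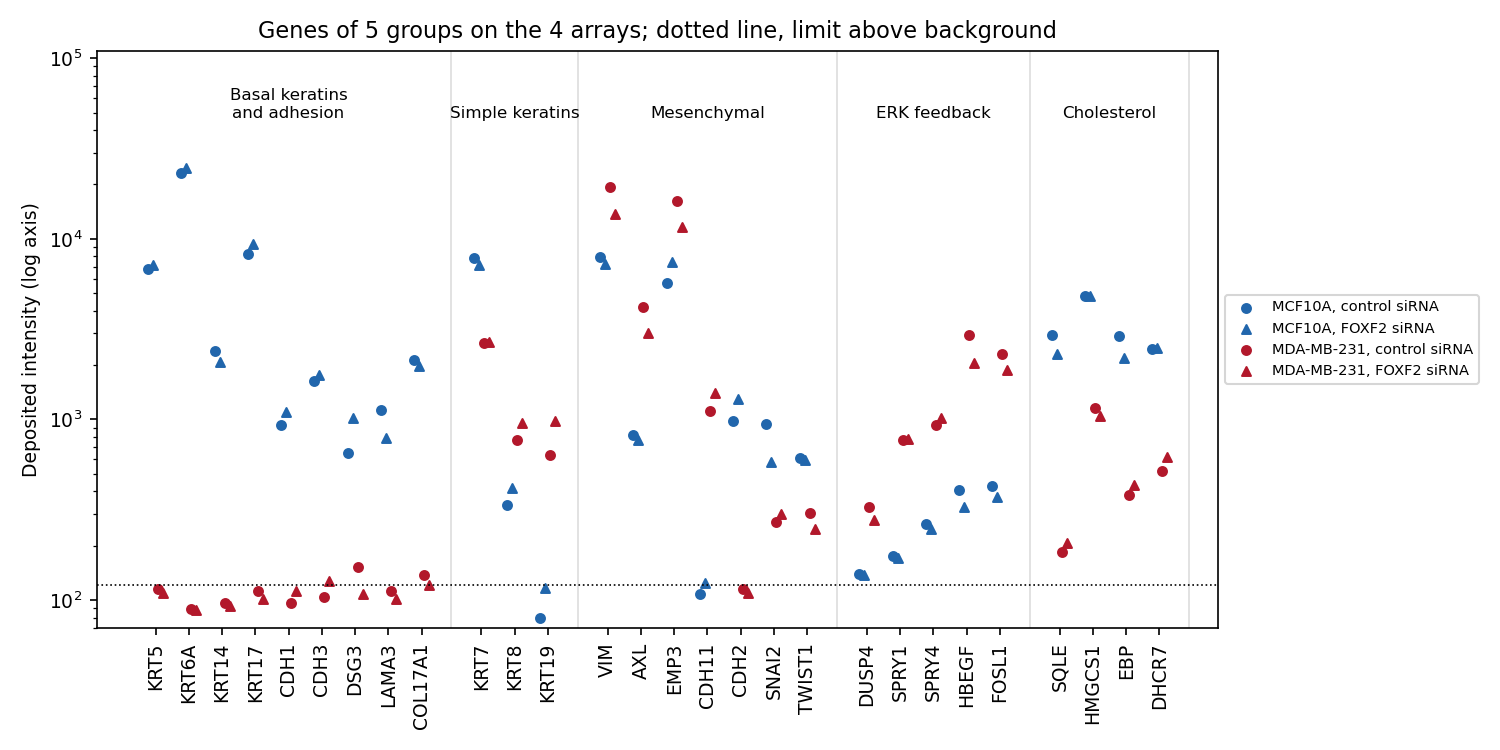
Deposited intensity (log axis) of named genes of 5 groups on the 4 arrays, circles for control and triangles for FOXF2 siRNA; the dotted line is the highest of the 4 limits above background, 121.6. Basal keratin and adhesion genes lie near the line in MDA-MB-231 on both arrays, ERK feedback genes lie higher there, and the 4 cholesterol genes shown lie lower in MDA-MB-231 on both arrays.

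As the E-box CAGGTG is the core bound by ZEB and SNAI repressors, it was looked for in RefSeq promoters (GRCh38.p14; 250 bases before to 50 after the start of each gene), on both strands, so also as CACCTG. It was present in 20.6% of all 27305 promoters, in 18.5% of the 9787 promoters of genes above background, in 18.1% of those at least 2-fold higher in MDA-MB-231 and in 24.8% of those at least 2-fold lower. At 4-fold the shares were 18.9% of 228 higher and 29.7% of 239 lower genes. A match is a description of letters and not a bound site. Of 15 epithelial genes named here by rule, called and with a promoter in the table, 6 (40%) held it, and their promoters are shown with the E-box in capitals, 5′ to 3′ on the strand of the gene.
KRT5 (chr12:52520345-52520644, minus strand): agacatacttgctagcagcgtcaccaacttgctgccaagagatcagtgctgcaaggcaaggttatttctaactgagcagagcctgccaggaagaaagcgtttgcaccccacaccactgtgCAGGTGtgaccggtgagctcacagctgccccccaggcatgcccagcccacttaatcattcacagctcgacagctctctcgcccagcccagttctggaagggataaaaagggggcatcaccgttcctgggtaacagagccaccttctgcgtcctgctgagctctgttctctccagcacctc
MUC1 (chr1:155192866-155193165, minus strand): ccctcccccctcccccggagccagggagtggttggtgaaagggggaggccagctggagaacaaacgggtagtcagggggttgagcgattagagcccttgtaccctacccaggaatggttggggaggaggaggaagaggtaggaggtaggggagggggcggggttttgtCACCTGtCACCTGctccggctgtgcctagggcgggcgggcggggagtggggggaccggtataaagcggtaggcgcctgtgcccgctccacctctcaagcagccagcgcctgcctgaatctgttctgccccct
LAMA3 (chr18:23872770-23873069, plus strand): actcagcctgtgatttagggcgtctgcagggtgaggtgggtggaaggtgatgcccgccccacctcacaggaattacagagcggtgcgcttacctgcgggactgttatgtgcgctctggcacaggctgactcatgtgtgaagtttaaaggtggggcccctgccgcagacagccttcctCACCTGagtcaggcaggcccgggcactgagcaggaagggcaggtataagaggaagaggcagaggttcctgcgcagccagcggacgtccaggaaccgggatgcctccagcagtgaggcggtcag
DSP (chr6:7541421-7541720, plus strand): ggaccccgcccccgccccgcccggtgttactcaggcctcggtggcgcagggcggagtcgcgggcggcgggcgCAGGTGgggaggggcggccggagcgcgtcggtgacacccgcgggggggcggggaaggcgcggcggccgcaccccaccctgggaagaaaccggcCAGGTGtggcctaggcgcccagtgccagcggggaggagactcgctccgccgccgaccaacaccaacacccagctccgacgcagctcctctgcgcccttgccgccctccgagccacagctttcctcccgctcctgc
CRB3 (chr19:6464021-6464320, plus strand): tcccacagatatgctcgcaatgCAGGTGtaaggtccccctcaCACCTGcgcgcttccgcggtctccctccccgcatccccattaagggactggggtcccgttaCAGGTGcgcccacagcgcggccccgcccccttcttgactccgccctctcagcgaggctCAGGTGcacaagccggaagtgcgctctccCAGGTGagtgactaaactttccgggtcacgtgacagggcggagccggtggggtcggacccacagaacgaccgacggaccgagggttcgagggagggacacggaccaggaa
ITGA6 (chr2:172427086-172427385, plus strand): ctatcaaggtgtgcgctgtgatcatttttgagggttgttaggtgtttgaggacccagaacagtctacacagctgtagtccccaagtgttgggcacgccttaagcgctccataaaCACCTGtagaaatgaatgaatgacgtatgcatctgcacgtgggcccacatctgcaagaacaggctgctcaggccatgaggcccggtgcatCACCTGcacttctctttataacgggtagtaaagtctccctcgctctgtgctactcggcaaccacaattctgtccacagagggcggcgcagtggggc
CRB3 held the motif 5 times, MUC1, DSP and ITGA6 2 times each, and KRT5 and LAMA3 once. The other 9 held neither form in this window. Any epithelial gene named here but without a promoter in the table was not searched, so a gene not shown need not lack the motif. With 15 genes the share of 40% is a rough one.

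Among epithelial transcription factors, 8 of 20 above background were lower in MDA-MB-231 and 2 higher (median -0.69). TP73L (TP63), the transcription factor that defines basal cells, read 504 and 369 in MCF10A and 98.0 and 121 in MDA-MB-231, at least 11.96-fold lower. OVOL2, a repressor of mesenchymal genes, read 664 and 614 in MCF10A and 108 and 109 in MDA-MB-231 (at least 16.5-fold), and TFAP2A, an AP-2 factor of ectoderm, 969 and 1062 in MCF10A and 167 and 156 in MDA-MB-231 (log2 difference -3.44). IRX4, an Iroquois homeobox factor, was at least 54.3-fold lower. Both exceptions, KLF4 (1.45) and SOX9 (2.29), were higher in MDA-MB-231 and repeated (1.75 and 3.43). GRHL1, GRHL2 and ELF5 were at background in both lines.

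Where genes of keratinocyte differentiation and of the S100 calcium-binding and annexin families passed 2-fold, they were mostly brighter in MCF10A. In the cornified envelope list 7 of 23 were lower and 0 higher (median -0.70); many of its members were dim in both lines. SERPINB5 (maspin) was at least 122-fold lower, with 4332 and 3867 in MCF10A and 121 and 102 in MDA-MB-231. SFN, 14-3-3 sigma, read 3704 and 4047 in MCF10A and 608 and 642 in MDA-MB-231 (-2.80) and TGM1, transglutaminase 1, 412 and 569.7 in MCF10A and 123 and 106 in MDA-MB-231 (-3.15). S100A8 and S100A9, which form calprotectin, read 5465 and 4925 and 5097 and 4714 in MCF10A and were at background on both MDA-MB-231 arrays, at least 154-fold and 143-fold lower. S100A2 read 7517 and 4897 in MCF10A and 239.8 and 236 in MDA-MB-231 (-5.60). In contrast S100A6 and S100A10, the partner of annexin A2, differed by 0.01 and -0.18. The list of S100 and annexin genes had 8 lower, 1 higher and 11 not called of 20. Its higher gene was the annexin ANXA6 (at least 4.96-fold), and ANXA3, ANXA8 and ANXA8L2 were among the lower ones.

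The mesenchymal lists did not move as a block. Of 18 transcription factors known from mesenchymal transition, 3 were higher in MDA-MB-231, 7 lower and 8 not called (median 0.20). SNAI2 (SLUG), a repressor of E-cadherin that basal epithelium also uses, was lower in MDA-MB-231, with 947 and 584 in MCF10A and 269.6 and 301 in MDA-MB-231 (log2 difference -2.23, -1.22 in the repeat). TWIST1 was also lower, with 609 and 594 in MCF10A and 302 and 248 in MDA-MB-231 (-1.27). MSX1 and TWIST2 were at least 13.1-fold and 5.07-fold lower. FOXQ1, a forkhead factor, was the largest difference upward, with 261 and 289 in MCF10A and 1598 and 1134 in MDA-MB-231 (3.11). Of the control arrays, ZEB1, ZEB2 and SNAI1 were a little above background only on that of MDA-MB-231 (136, 128 and 128). On its FOXF2 siRNA array ZEB1 and ZEB2 were so again (129 and 140), and SNAI1 was not (117). Their bounds were under 2-fold, and ZEB1 had one of at least 1.40-fold in the control pair.

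Of 22 mesenchymal cytoskeleton and surface genes, 7 were higher and 4 lower (median 0.34). CDH11, a mesenchymal cadherin, read 107 and 124 in MCF10A and 1108 and 1406 in MDA-MB-231, at least 29.1-fold higher in MDA-MB-231. CDH2 (N-cadherin), the usual partner of the cadherin switch, went the other way, with 981 and 1289 in MCF10A and 115 and 109 in MDA-MB-231 (at least 25.6-fold lower). ANPEP, the surface peptidase CD13, was at least 118-fold lower (4226 and 2937 against 94.5 and 107). TGFBI, a secreted matrix protein, read 19228 and 18198 in MCF10A and 4263 and 4027 in MDA-MB-231 (-2.20), and EMP3, a membrane protein of mesenchymal lines, 5678 and 7431 in MCF10A and 16210.4 and 11649 in MDA-MB-231 (1.53, but 0.65 in the repeat). MCF10A therefore carried CDH1, CDH2 and CDH3 together, and MDA-MB-231 carried none of them above background under control siRNA, but did carry CDH11. Among the lower genes of the actin list, ACTA2 (smooth muscle actin) read 522 and 863 in MCF10A and 139 and 134 in MDA-MB-231 (-3.05). TAGLN read 617 and 836 in MCF10A and 124 and 116.1 in MDA-MB-231 (-3.81). TPM2 read 4024 and 3171 in MCF10A and 359 and 298 in MDA-MB-231 (-3.85). CNN3, a calponin, was higher (1.81), and the list as a whole had 4 higher and 8 lower of 25 (median 0.01, and -0.01 after quantile normalization).

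The matrix genes exchanged members between the lines. Collagens and fibrillar matrix had 5 higher and 8 lower of 20 (median -0.39). COL13A1, a transmembrane collagen of cell junctions, read 136 and 132 in MCF10A and 4457 and 3792 in MDA-MB-231 (log2 difference 6.45), and COL6A1, of the beaded filaments, 127 and 169 in MCF10A and 1250.2 and 1921 in MDA-MB-231 (4.86). FBN2, a fibrillin, read 2277 and 1953 in MCF10A and 123 and 109 in MDA-MB-231 (-5.88) and COL8A1 782 and 1729.9 in MCF10A and 121 and 141 in MDA-MB-231 (-4.32). VCAN, the proteoglycan versican, was at least 23.6-fold lower in MDA-MB-231. FN1, COL1A1 and COL1A2 were at background in both lines. In the matricellular list, IGFBP4, which binds insulin-like growth factors, had the largest difference of all genes measured in both lines: it read 134 and 125 in MCF10A and 8434 and 10197 in MDA-MB-231 (7.46). CYR61 (CCN1) and CTGF (CCN2), adhesive proteins induced by YAP, read 507 and 674 in MCF10A and 9034 and 6648 in MDA-MB-231 and 731 and 1070.4 in MCF10A and 6817 and 6456 in MDA-MB-231 (4.41 and 3.38). THBS1, thrombospondin 1, did not hold: it differed by -1.82 in the control pair and -0.22 in the other.

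Proteases and plasminogen genes were next. PLAU, the urokinase that activates plasminogen, read 1145 and 856 in MCF10A and 14878 and 6207 in MDA-MB-231 (3.81). Its receptor PLAUR read 298 and 261 in MCF10A and 1119 and 1077 in MDA-MB-231 (2.29), so ligand and receptor were both brighter in MDA-MB-231. The tissue activator PLAT was lower (-1.64). F2RL1, a protease-activated receptor, read 599 and 639 in MCF10A and 3796 and 3045 in MDA-MB-231 (2.86), and TFPI2, a secreted protease inhibitor, 89.7 and 115 in MCF10A and 427 and 527 in MDA-MB-231, at least 9.72-fold higher. SERPINA3, antichymotrypsin, was at least 15.02-fold lower. In the list 6 were higher and 4 lower of 18 (median 0.12).

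Of matrix proteases and their inhibitors 5 were higher and 7 lower of 22 (median 0.13). The metalloproteases MMP1, MMP2, MMP7, MMP10 and MMP13 were at background in both lines. TIMP1, a metalloprotease inhibitor, was lower in MDA-MB-231 (16475 and 13729 in MCF10A and 4828 and 4734 in MDA-MB-231; -1.79), and TIMP4 was at least 13.8-fold higher (571 and 658 against 100.01 and 105). ADAM19, a membrane protease, read 247 and 199 in MCF10A and 755 and 584 in MDA-MB-231 (2.06). Of 12 integrin subunits, 2 were lower, ITGA6 and ITGA10, and 0 higher, beside 7.64% and 7.73% of all genes. ITGB1, the common beta subunit, read 2979.8 and 2528 in MCF10A and 3195 and 2383 in MDA-MB-231 (0.10).

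The AP-1 site TGANTCA, which reads the same on both strands, was present in 7.76% of all promoters, 4.83% of those of genes above background, 5.84% of those at least 2-fold higher and 6.14% of those at least 2-fold lower in MDA-MB-231. At 4-fold the shares were 10.1% and 7.53%. Of 13 genes of the mesenchymal, matrix and protease lists named here by rule, called and with a promoter in the table, 2 held it. They are shown as before with the site in capitals (RefSeq, GRCh38.p14).
TFPI2 (chr7:93890704-93891003, minus strand): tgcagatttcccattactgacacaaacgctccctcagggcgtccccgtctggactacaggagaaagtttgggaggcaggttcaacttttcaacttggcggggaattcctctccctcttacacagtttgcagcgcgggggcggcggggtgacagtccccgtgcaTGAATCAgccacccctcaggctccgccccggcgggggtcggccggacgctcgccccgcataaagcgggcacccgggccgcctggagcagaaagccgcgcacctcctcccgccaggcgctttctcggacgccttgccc
PLAUR (chr19:43670120-43670419, minus strand): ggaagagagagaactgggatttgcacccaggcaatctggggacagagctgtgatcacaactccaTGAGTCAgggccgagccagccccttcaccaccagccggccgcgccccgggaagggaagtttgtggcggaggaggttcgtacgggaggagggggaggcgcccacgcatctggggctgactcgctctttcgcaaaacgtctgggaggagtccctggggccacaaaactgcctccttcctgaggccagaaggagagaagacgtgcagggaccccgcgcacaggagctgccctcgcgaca
Both genes were higher in MDA-MB-231 in both pairs. The promoter of LAMA3 shown above, a gene lower in MDA-MB-231, holds the site too. A match is again a description of letters, and whether AP-1 acts on these genes was not tested.

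The EGF receptor family and the feedback genes of the ERK cascade gave the most one-sided list among the signalling lists: 13 of 25 were higher and 0 lower, 12 of the higher repeated, and the median was 1.15. The receptors EGFR (228 and 261 in MCF10A and 174 and 211 in MDA-MB-231; log2 difference -0.69), ERBB2 (0.13), ERBB3 (-0.18) and MET (-0.13) did not pass 2-fold. ERBB4 passed in the control pair while dim (124 against 170.3; 1.15) and was at background in the other, and EPHA2 is given with its family. Among ligands, HBEGF read 406 and 327 in MCF10A and 2929.8 and 2065 in MDA-MB-231 (3.16) and NRG1 was at least 4.80-fold higher. Among the inhibitors that ERK induces, SPRY1 (Sprouty 1) read 175 and 171 in MCF10A and 766 and 783 in MDA-MB-231 (2.95), SPRY4 263 and 246 in MCF10A and 929 and 1016 in MDA-MB-231 (2.25) and the phosphatase DUSP4 139 and 138 in MCF10A and 328 and 277 in MDA-MB-231 (2.22). PHLDA1, another gene that growth factors induce, read 1274 and 936 in MCF10A and 6735 and 5997 in MDA-MB-231 (2.49). FOSL1 (FRA1), a subunit of AP-1, read 428 and 374 in MCF10A and 2316 and 1879 in MDA-MB-231 (2.71). Apart from ERBB4 and EPHA2, the higher genes were ligands, feedback inhibitors and induced genes.

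**Figure D4:**
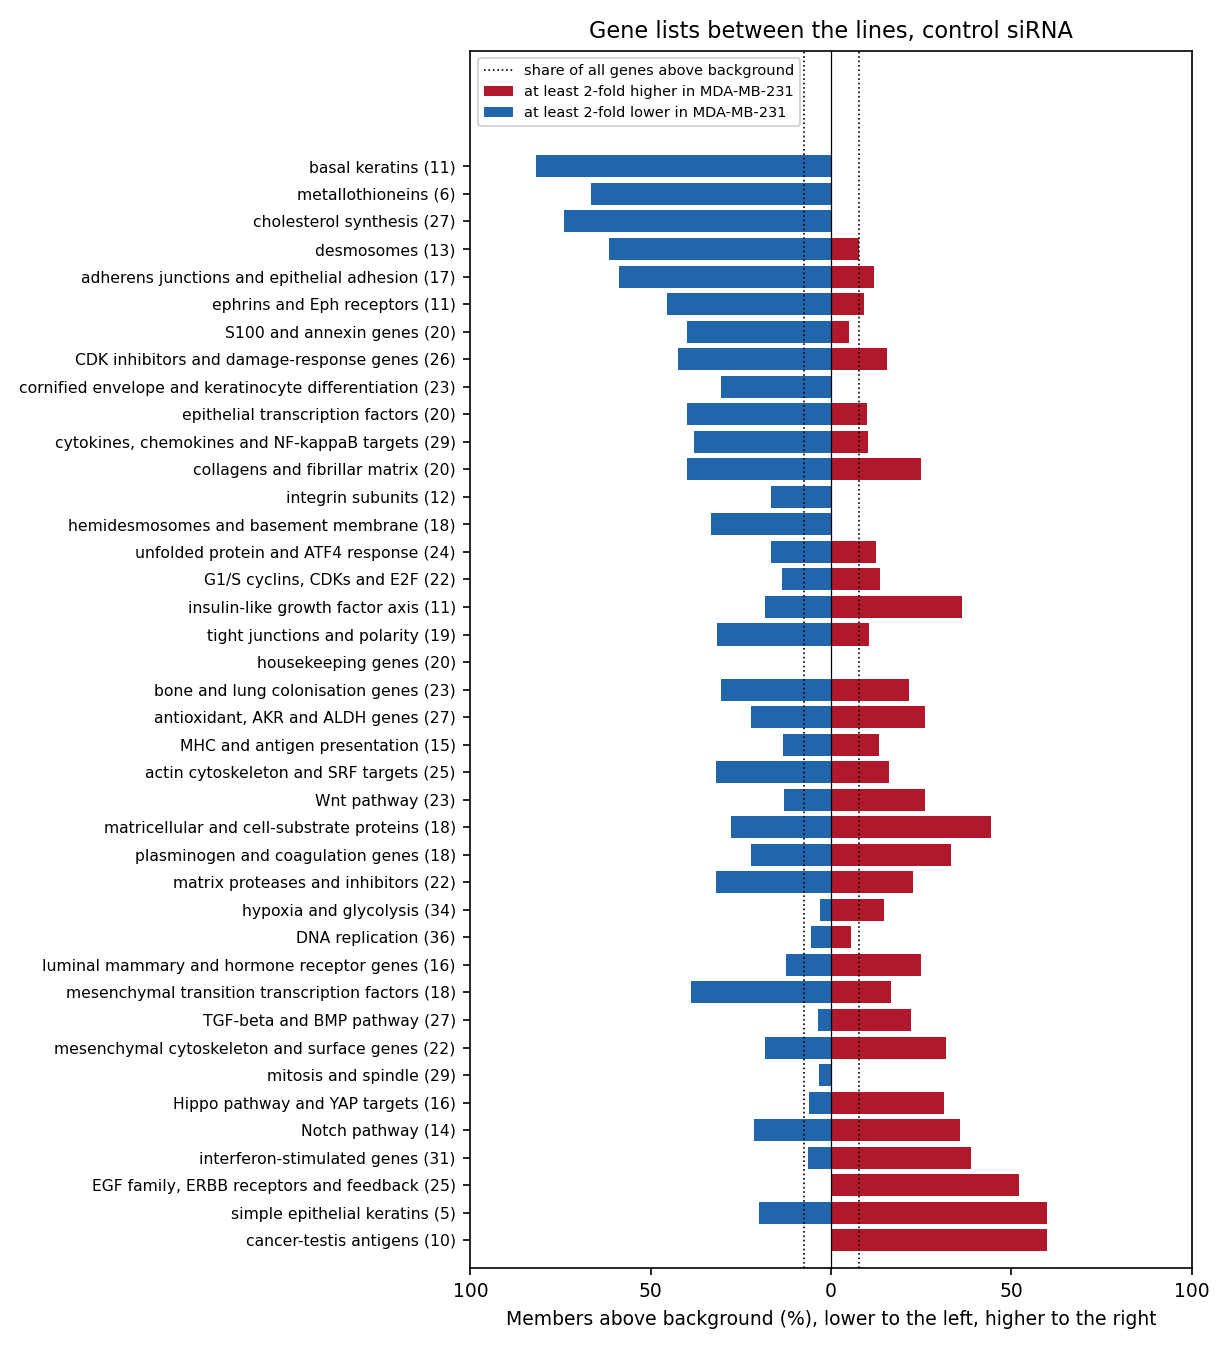
Percent of the members above background (their number in brackets) that were at least 2-fold higher (right) or lower (left) in MDA-MB-231 under control siRNA, for 40 gene lists ordered by their median difference; dotted lines mark 7.73% and 7.64%, the shares over all genes. Basal keratins, metallothioneins and cholesterol synthesis lie farthest to the lower side, and cancer-testis antigens, simple keratins and EGF family feedback genes to the higher side. The higher cancer-testis antigens were above background in MDA-MB-231 only, so the filter set their direction.

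Among other pathways, the lists were mixed. The insulin-like growth factor list held 4 higher and 2 lower of 11: IGFBP1 (2.67) and the adaptor IRS1 (1.92) were higher beside IGFBP4, and IGFBP6 (-1.30) and IGFBP7 (-1.16) lower. In the TGF-beta and BMP list 6 of 27 were higher and 1 lower (median 0.25). SMAD3, a signal carrier of TGF-beta, read 365 and 339.7 in MCF10A and 1677 and 1537 in MDA-MB-231 (2.51), and the ligands BMP4 and INHBB were at least 5.67-fold and 8.23-fold higher. In the Wnt list 6 were higher and 3 lower of 23 (median 0.02). SFRP1, a secreted Wnt antagonist, read 4364 and 5155 in MCF10A and 98.9 and 90.8 in MDA-MB-231 and was at least 122-fold lower in MDA-MB-231, while the co-receptor LRP5 was higher (1.31).

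In the Notch list 5 were higher and 3 lower of 14. The receptor NOTCH1 was lower (1015 and 1216 in MCF10A and 476 and 333 in MDA-MB-231; -1.25), and the ligand JAG2 at least 6.57-fold lower. The target genes HES1 (1.35) and HEY2 (at least 2.82-fold) were higher. Ephrins and their receptors had 5 lower and 1 higher of 11 (median -0.82). The ligands EFNA1 (-1.92) and EFNB1 (-2.60) were lower, and the receptor EPHA2 read 653 and 421 in MCF10A and 1409 and 1049 in MDA-MB-231 (1.22). YAP and Hippo genes had 5 higher and 1 lower of 16. YAP1 did not pass 2-fold (-0.68), its targets ANKRD1 (at least 15.2-fold), CYR61 and CTGF were higher, and WWC1 (KIBRA), an upstream activator of Hippo, was lower (961 and 949.6 in MCF10A and 123 and 154 in MDA-MB-231; -4.58). The median of that list was 0.46 in the control pair and -0.15 in the FOXF2 siRNA pair, so its sign was not stable.

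Cytokines and interferon-stimulated genes went in different directions. Of 29 cytokine, chemokine and NF-kappaB target genes, 11 were lower and 3 higher in MDA-MB-231 (median -0.45). IL1A and IL1B, the interleukin-1 ligands, read 1748 and 1135 in MCF10A and 92.5 and 114 in MDA-MB-231 and 821 and 359.5 in MCF10A and 111 and 108 in MDA-MB-231, at least 47.6-fold and 21.0-fold lower. The chemokines CXCL1 (-3.40) and CCL20 (at least 13.9-fold) were lower, and so was the NF-kappaB inhibitor NFKBIA (-1.30). IL11, CSF2 and LIF were the higher members: IL11 read 121 and 119 in MCF10A and 911 and 518 in MDA-MB-231 (at least 23.5-fold), CSF2 (GM-CSF) 106 and 91.9 in MCF10A and 450.2 and 264 in MDA-MB-231 (at least 10.4-fold) and LIF 103 and 102 in MCF10A and 289 and 269 in MDA-MB-231 (at least 5.78-fold). IL8 did not pass 2-fold (0.36).

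Of 31 interferon-stimulated genes, 12 were higher and 2 lower (median 0.91; 9 of the higher repeated). ISG15, a ubiquitin-like modifier, read 199.8 and 239 in MCF10A and 946 and 1149.8 in MDA-MB-231 (2.92), IFI44 128 and 199.7 in MCF10A and 799 and 807 in MDA-MB-231 (4.12) and MX1, an antiviral GTPase, 123 and 143 in MCF10A and 284 and 287 in MDA-MB-231 (2.43). IFI16, a DNA sensor, was lower, with 1135 and 1027 in MCF10A and 239 and 222 in MDA-MB-231 (-2.78). Of the transcription factors that carry interferon signals, STAT2 and IRF9 differed by 0.68 and 0.91 and did not pass 2-fold. GBP2 was higher by 3.44 in the control pair and 1.04 in the other, where its MCF10A array read 382 in place of 149.8. Antigen presentation genes had 2 higher and 2 lower of 15, beside 7.73% and 7.64% of all genes. HLA-E (-1.44) and the peptide transporter TAP1 (-1.23) were lower. CD74, CIITA and HLA-DRA, of the class II pathway, were at background in both lines.

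Some genes were above background in MDA-MB-231 alone. On both MDA-MB-231 arrays and on no MCF10A array, 776 genes were above background, 261 of them by at least 2-fold; the reverse held for 731 and 275. Cancer-testis antigens, which are normally restricted to germ cells, were of this kind: 6 of the 10 above background were at least 2-fold higher, 0 were lower, all 6 repeated, and 19 listed genes were at background in both lines. These 6 were above background in MDA-MB-231 only and were counted among the 10 through that line. Their direction was thus set by the filter, and the share of 6 in 10 is no evidence on the family. MAGEA6 read 109.7 and 104 in MCF10A and 794 and 679 in MDA-MB-231 (at least 20.2-fold), MAGEC1 101 and 102 in MCF10A and 470.3 and 450.5 in MDA-MB-231 (at least 10.9-fold) and SPANXA1 109 and 111 in MCF10A and 737 and 803 in MDA-MB-231 (at least 18.5-fold). The MAGEA and SPANX genes have near-identical copies, so that which copy gave a signal was not tested. Of genes beyond the lists, EPDR1, an ependymin-related secreted protein, read 80.8 and 89.9 in MCF10A and 2970.3 and 3325 in MDA-MB-231 (at least 82.2-fold), and FOXA2, a forkhead factor of endoderm, 114 and 100.2 in MCF10A and 1549 and 1586 in MDA-MB-231 (at least 41.7-fold). LAPTM5, a lysosomal membrane protein known from blood cells, read 106 and 111 in MCF10A and 1483 and 1227 in MDA-MB-231, and FLNC, muscle filamin, was at least 39.6-fold higher.

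The luminal list had 4 higher and 2 lower of 16. TFF3, a trefoil peptide of secretory epithelia, read 107 and 101 in MCF10A and 1284 and 1683 in MDA-MB-231, at least 34.1-fold higher in MDA-MB-231, and TFF1 was near the limit (97.0 and 91.5 in MCF10A and 157 and 190.3 in MDA-MB-231). GATA3 and FOXA1, the luminal factors, differed by 0.07 and 0.28. Genes that others defined as marking bone or lung colonisation in sublines of MDA-MB-231 were split, with 5 higher and 7 lower of 23 (median -0.05). IL11 and CTGF were higher in the parental line than in MCF10A, CXCL1 and ANGPTL4 (-2.94) were lower, and MMP1, CXCR4 and VCAM1 were at background in both.

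Of genes above background in both lines and outside the lists, the higher ones included EEF1A2, a translation elongation factor of muscle and nerve (127 and 202 in MCF10A and 3366 and 3716 in MDA-MB-231; 6.34), and KLF2, a Krüppel-like factor (137 and 153 in MCF10A and 3310.3 and 2459.98 in MDA-MB-231). PRSS23, a serine protease (5.34), GPR116 (ADGRF5), an adhesion receptor (5.20), and PRKCA, protein kinase C alpha (3.91), were also higher. On the lower side, SCNN1A, a subunit of the epithelial sodium channel, read 6304 and 7784 in MCF10A and 139 and 156 in MDA-MB-231 (-6.88). MAL2, of apical transport, read 2077 and 1660.4 in MCF10A and 126 and 109 in MDA-MB-231 (-5.64), SOX15 2093 and 1558 in MCF10A and 132 and 115.6 in MDA-MB-231 (-5.46) and NNMT, nicotinamide N-methyltransferase, 3664 and 4719.7 in MCF10A and 278 and 260.3 in MDA-MB-231 (-4.22). FGFBP1, a carrier of fibroblast growth factors, and HOXA5 were at least 154-fold and 67.0-fold lower.

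In metabolism, cholesterol synthesis was the most one-sided list. Of its 27 genes, all above background, 20 were at least 2-fold lower in MDA-MB-231, 0 were higher, 18 of the lower repeated, and the median was -1.67. HMGCS1, of its early steps, read 4799 and 4847 in MCF10A and 1159 and 1043 in MDA-MB-231 (-2.13). SQLE, squalene epoxidase, read 2945 and 2306 in MCF10A and 185 and 206 in MDA-MB-231 (-4.86), EBP 2904 and 2196 in MCF10A and 380.2 and 431 in MDA-MB-231 (-3.26) and DHCR7, the last step, 2455 and 2485 in MCF10A and 516 and 623 in MDA-MB-231 (-2.46). SREBF1, a transcription factor of lipid synthesis, differed by 0.20. FASN, of fatty acid synthesis, differed by -0.75. The enzymes of the pathway were thus dimmer in MDA-MB-231 together.

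Of 6 metallothioneins above background, the metal-binding proteins, 4 were lower and 0 higher (median -1.95). MT1G read 4034 and 3037 in MCF10A and 592 and 446 in MDA-MB-231 (-2.96) and MT1X 10763 and 11855 in MCF10A and 2217 and 3846 in MDA-MB-231 (-2.33), while MT1A and MT2A did not pass 2-fold (-0.22 and -0.78). These genes are close copies of each other, and cross-hybridisation was not tested. Antioxidant, aldo-keto reductase and aldehyde dehydrogenase genes had 7 higher and 6 lower of 27 (median -0.01): GPX3, a secreted glutathione peroxidase (at least 15.3-fold), and ALDH2 (at least 14.6-fold) were higher, and ALDH3A1 (-2.27) and ALDH1A3 (-2.99) lower.

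Hypoxia and glycolysis genes had 5 higher and 1 lower of 34 (median 0.14). The glucose transporters SLC2A1 and SLC2A3 read 1281 and 1311 in MCF10A and 4154 and 3549 in MDA-MB-231 (1.77) and 369.8 and 233 in MCF10A and 1609 and 709 in MDA-MB-231 (2.43), and ENO2, the neuronal enolase, 145 and 108 in MCF10A and 648 and 742 in MDA-MB-231 (3.26). The main glycolytic enzymes ENO1 and LDHA differed by 0.00 and -0.27. In the list of the unfolded protein and ATF4 responses (3 higher and 4 lower of 24), TRIB3 (-2.69) and DDIT4 (-2.17), both stress-induced inhibitors, were lower, and PPP1R15A was higher by 1.81 and by 0.69 in the repeat.

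Of 26 CDK inhibitors and damage-response genes, 11 were lower and 4 higher (median -0.72; 10 of the lower repeated). CDKN1A (p21), a CDK inhibitor, read 1666 and 1852 in MCF10A and 546 and 455 in MDA-MB-231 (-1.78), and SESN1, a sestrin induced by stress, 606 and 612 in MCF10A and 214 and 206 in MDA-MB-231 (-2.03). BTG2 and FAS were at least 6.62-fold and 4.13-fold lower. CDKN2A was at background in both lines. CDKN2D, an inhibitor of CDK4, was higher, with 145 and 154 in MCF10A and 530.1 and 403 in MDA-MB-231 (2.92).

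Cell cycle genes were described in 3 lists. Of 29 mitosis genes, 0 were 2-fold higher and 1 lower, with a median of 0.40 and 23 positive differences; the exception was MAD2L1 (-1.20, and -0.38 in the repeat). Of 36 replication genes, 2 were higher (POLE2, 1.38, and FEN1, 1.04) and 2 lower (median 0.16), beside 7.73% and 7.64% of all genes. Among G1/S genes (3 higher and 3 lower of 22), MYC was lower in MDA-MB-231, with 4332 and 4792 in MCF10A and 744 and 610.1 in MDA-MB-231 (-2.69), CCND1, cyclin D1, was higher, with 4689 and 5416 in MCF10A and 9409 and 10797 in MDA-MB-231 (1.02), and CCND2 was at least 13.5-fold lower. As a yardstick, 0 of 20 housekeeping genes were 2-fold higher and 0 lower, with a median of -0.07 and GAPDH at 13062 and 13814 in MCF10A and 13899 and 15315 in MDA-MB-231 (0.09).

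Differences of neighbouring genes were followed along the chromosomes in windows of 50 genes above background, in the order of the RefSeq gene table (GRCh38.p14). Of the 234 window medians, all but the outer 5% at either end lay between -0.30 and 0.35. Chromosome 1 held the lowest and the highest. The window from ARF1 to EDARADD had a median of -0.89, with 45 of 50 genes lower in MDA-MB-231, and -0.98 in the FOXF2 siRNA pair. The windows before it, from ANGEL2 to JMJD4 and from NUAK2 to VASH2, had medians of -0.71 and -0.58. The window from C1ORF181 to SNX7 had 0.81, and 0.83 in the other pair, followed by PALMD to CD53 and TMEM77 to WARS2 with 0.56 each. Of the 176 genes of chromosome 18, 36 were at least 2-fold lower (20.5%) and 6 higher (3.41%), beside 7.64% and 7.73% of all genes. Those all-gene shares also count names placed on no chromosome. On chromosomes 1 and 4, 14.1% and 12.9% of genes were lower. A window of chromosome 18 from RNF165 to SERPINB3, which ends at the serpin cluster, had a median of -0.51. The window from DNAHL1 to C17ORF62 on chromosome 17 did not come back, with 0.58 in the control pair and 0.08 in the other.

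**Figure D5:**
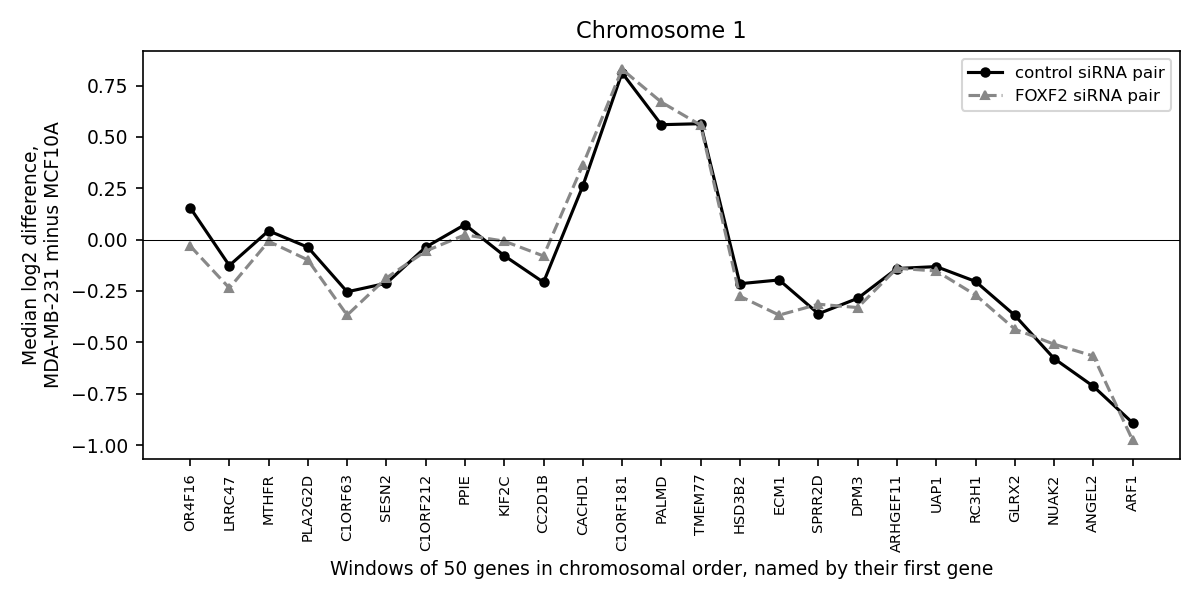
Median log2 difference of MDA-MB-231 minus MCF10A in windows of 50 neighbouring genes along chromosome 1, each named by its first gene, for the control siRNA pair (black circles) and the FOXF2 siRNA pair (grey triangles). Both pairs peak at the window that starts with C1ORF181 (0.81 and 0.83) and are lowest at the last window drawn, which starts with ARF1 (-0.89 and -0.98).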

How the data were processed

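The files used hold 1 intensity per gene name and array, deposited by the authors as a processed value table of 37810 names on 4 arrays. How they normalized it and joined probes into genes is not given in the sources used here. The lowest values were 72.4 to 74.0, and 19637 intensities occurred on both control arrays to the last digit. A probe-level table of 48797 probes was left out, because its 8 columns of per-sample values match no sample's labels; where a name stands for several probes (6964 names), their agreement was not checked.

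For each array the background was the mode of values below 140 (kernel bandwidth 1.5), with the SD of the values below it, 8.13 to 8.24. The normexp signal estimate used this mode and SD, and log2 was taken after adding 16. A call was a difference of at least 2-fold. All 37810 names were processed, 17198 were compared, and 20612, at background on both control arrays, were not. Lists were described by counts and medians over members above background, beside the same over all genes. Scripts were tested on simulated data and ran in Python 3.11.15 with numpy 2.4.6, pandas 2.3.3, scipy 1.17.1 and matplotlib 3.10.9.

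The members and gene lists were chosen with earlier results of these data known. Named were the 20 highest and 20 lowest genes measured in both lines that repeated, the 20 largest bounds each way, up to 6 members per list, 6 genes each way that did not repeat, and FOXF2; a few of these are only counted in the text, and some genes are not reported here. Other members were named after their values were seen. Names were those of the table: 15704 matched a current symbol and 2997 a synonym in the RefSeq table, and 19109 neither. XIST and Y-linked genes were counted and not named.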

Additional observations from a re-analysis of the deposited data

Results flagged for a closer look

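Genes above background on all 4 arrays whose line difference had opposite signs in the pairs were singled out, the 6 with the largest control difference in each direction; that the pairs differ was not tested, and each value rests on 1 array per group. UCN2, a peptide hormone of the urocortin family, had a log2 difference of 2.04 in the control pair and -0.28 in the FOXF2 siRNA pair, with 162 and 161 in MCF10A and 396 and 148 in MDA-MB-231. SLC43A2, an amino acid transporter, had 1.85 and -0.45, and SPIN1 1.59 and -0.63. MFN1, of mitochondrial fusion, had 1.5 and -0.22, CABLES2 1.49 and -0.26, and CCDC102A 1.38 and -0.08. On the other side MCPH1 had -1.41 and 0.01, and GPR119, a lipid receptor, -1.32 and 0.44. PDF, mitochondrial peptide deformylase, had -1.29 and 0.03, TIPRL -1.04 and 0.05, and SNORD14A, a small nucleolar RNA, -1.03 and 0.02. ARHGAP18, a RhoA GTPase-activating protein, had -1.36 and 0.95, with intensities of 179 and 142 in MCF10A and 122 and 194 in MDA-MB-231. In all of these genes but SPIN1 and ARHGAP18 the second value was under 0.5 in size.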

How the results depend on the processing

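Counts depended on how dim genes were treated. Against 1330 higher, 1314 lower and 1686 repeated calls, there were 580, 642 and 912 without background correction, 848 and 872 higher and lower with an offset of 50, 2146 and 2074 with no filter on dim genes, and 890 higher, 851 lower and 1027 repeated with bounds left out. Quantile normalization of the pair gave 1302 and 1341 and scaling to a common median 1329 and 1313, but the deposited arrays already shared their median and 19637 exact values, so neither tests how scaling bears on the calls. A limit at the upper 5% or 0.1% of the background gave 1487 and 1496 or 1207 and 1202. The higher share of calls stayed between 47.5% and 51.1%, and the median of all genes at or under 0.04.

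With the FOXF2 siRNA arrays in place of the control arrays there were 1339 higher and 1357 lower genes, and 13 named genes reversed: UCN2 (-0.28), SLC43A2 (-0.45), SPIN1 (-0.63), MFN1 (-0.22), CABLES2 (-0.26), CCDC102A (-0.076), MCPH1 (0.014), ARHGAP18 (0.95), GPR119 (0.44), PDF (0.034), TIPRL (0.049) and SNORD14A (0.021), all chosen for it, and AMOTL2, a target of YAP (1.04, then -0.94 as a bound). The causes were not tested. List medians changed sign there for Hippo (-0.15), G1/S (0.21), housekeeping (0.08), protease (-0.15), antigen presentation (-0.17), actin (-0.10) and colonisation genes (0.02). The basal keratin median was 0.09 with bounds left out, since that drops the 8 keratins at background in MDA-MB-231.

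No paired analysis was possible because each group held 1 array. Signal over background limits the dim genes, for which the pairs disagreed most (robust SD 0.61 at mean log2 values of 6 to 7). The size of a bound depends on the background correction: KRT6A had a log2 bound of -9.37 with it and -7.59 without.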

Other observations

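Some further genes and families were looked at after their values were seen, and nothing is supported by that choice. HOX genes, which record position along the body axis, had 22 of 39 above background. Of these, 9 were lower in MDA-MB-231 and 3 higher, beside 7.64% and 7.73% of all genes. HOXA5 read 2427 and 3574 in MCF10A and 87.6 and 118 in MDA-MB-231 and HOXA9 430.5 and 368 in MCF10A and 105 and 97.8 in MDA-MB-231, both at background on the MDA-MB-231 arrays, and HOXC8 615 and 646 in MCF10A and 205 and 209 in MDA-MB-231 (log2 difference -2.16). HOXD4 went the other way, at least 3.67-fold higher. Of the Iroquois genes, IRX4 and IRX2 were at least 54.3-fold and 44.0-fold lower, IRX5 differed by -2.12, and IRX1 (0.09) and IRX3 (-0.83) did not pass 2-fold.

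Ribosomal protein genes, which are bright and stable as a group, had 76 of 81 within 2-fold and a median of -0.12. RPS23 stood apart, with 230.1 and 276 in MCF10A and 2189.8 and 2289.6 in MDA-MB-231 (3.87), as did RPL39L, a copy of RPL39 known from testis and tumors, with 315 and 322 in MCF10A and 1479 and 1355 in MDA-MB-231 (2.61); RPL39 itself differed by -0.04. HSPA1A and HSPA1B encode nearly the same heat shock protein from neighbouring genes. HSPA1A read 3690.4 and 3687 in MCF10A and 105 and 96.3 in MDA-MB-231, while HSPA1B read 5047 and 4939 in MCF10A and 5195 and 6767 in MDA-MB-231 (0.04). USMG5 (ATP5MK), a small subunit of mitochondrial ATP synthase, read 1561 and 1966 in MCF10A and 149 and 197 in MDA-MB-231 (-4.55). Each of these signals came back on both arrays of each line. RPS23, HSPA1A and USMG5 had 1 probe each. Such a repeat does not tell a difference in RNA from a difference in how a probe reads each line, which was not tested.

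Runs of at least 4 neighbouring genes called the same way included KRT6B, KRT6C, KRT6A and KRT5 on chromosome 12, MT1F, MT1G, MTE and MT1X on chromosome 16, and VPS4B, SERPINB5 and SERPINB13 with FVT1 on chromosome 18, all lower in MDA-MB-231. LYPLAL1, EPRS, BPNT1, IARS2, MARK1 and C1ORF115 on chromosome 1 formed a run of 6 lower genes, inside the lower stretch of that chromosome. TRMT12, TATDN1, MTSS1, SQLE, KIAA0196 and NSMCE2 on chromosome 8 formed another of 6, so that SQLE, the most different of the cholesterol genes, lay among lower neighbours outside its pathway. Promoters poor in CpG (observed over expected under 0.6) made up 20.6% of the promoters of genes above background, 35.1% of those seen in MDA-MB-231 alone and 39.4% of those seen in MCF10A alone (168 and 155 promoters, at least 2-fold).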
